A study of Mus musculus with 3 samples.

Results

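Integrins and laminins are the receptors and ligands through which kidney cells hold their basement membranes. An integrin is a pair of 1 α and 1 β chain that spans the cell membrane, and the pair decides which matrix protein or cell surface it binds. A laminin is a trimer of 1 α, 1 β and 1 γ chain and is, with type IV collagen, a main network of every basement membrane, including that of the glomerulus, the filter of the kidney. The genes were chosen by name alone: every probe set whose only platform symbol is that of an integrin α, integrin β or laminin chain was taken, and probe sets of 1 gene were averaged. This gave 36 genes on 37 probe sets, of 19938 genes on 21789 single-symbol probe sets. They were 18 integrin α chains, 8 integrin β chains and 10 laminin chains.

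The data were 3 Affymetrix Mouse Gene 1.0 ST arrays of whole kidney RNA from female mice aged 8 to 10 weeks, of a strain the labels give as CBL/6. One array was hybridised for non-treated control mice. Another was for mice given 1 injection of sheep nephrotoxic serum (NTS, 13.5 ug per g of body weight), which carries antibodies to the glomerulus and sets off a nephritis. The last was for mice given the same injection and then prostaglandin E2 (PGE2, 5 ug per g) each day from day 2, written NTS/PGE2. They are called control kidney, serum kidney and PGE2 kidney below, each meaning 1 array. Treated mice were killed on day 7. With 1 array per group there was no replicate check and no test could be run, so every difference below is between single arrays, and the labels do not say whether an array holds RNA of 1 animal or of several. No group had PGE2 without serum, and no label gives a vehicle for the control mice.

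Values are RMA log2 values, on which a difference of 1 is 2-fold. A gene was compared between 2 arrays unless both its values lay below the array median over all probe sets, and 2-fold was the size rule. Kidney markers fixed as a tissue check were bright in control kidney, with the loop gene Umod at 13.70 and the proximal tubule transporter gene Slc34a1 at 13.64. Control kidney also held fat: the brown fat gene Ucp1 read 11.84 there, against 5.72 in serum kidney and 5.91 in PGE2 kidney. For scale, the SD of a single probe set's difference, taken from the gap between both probe sets of 447 bright genes, was 0.19 in either comparison with serum kidney and 0.12 between PGE2 and control kidney. That SD leaves out the spread between animals. In whole kidney, fewer cells of a type and less RNA per cell cannot be told apart.

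Of the 36 genes, 26 entered all 3 comparisons, 3 entered some and 7 entered none because they were dim on every array. In serum kidney, Lama5 and Itgam were at least 2-fold higher than in control kidney, and Itgb8 and Lama2 at least 2-fold lower, among 29 that entered. The same rule held for 2.70% of all genes upward and 5.42% downward, and 2 of 29 is 6.90%. For PGE2 against serum kidney, Itgb8 and Lama2 were at least 2-fold higher, where 4.15% of all genes were, and Itgam and Lamc1 at least 2-fold lower, where 3.28% were, among 28 that entered. For PGE2 against control kidney 0 of 27 differed 2-fold in either direction, where 0.0607% of all genes were higher and 0.659% lower. With so few genes, these shares describe the genes named and no more.

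At a smaller size, 1.5-fold, 6 of 29 were higher and 4 lower in serum kidney than in control kidney, against 7.62% and 11.9% of all genes. The added genes were Itga6, Itgb1, Itgb3 and Lamc1 on the higher side and Itga8 and Lama4 on the lower side. For PGE2 against serum kidney 3 of 28 were higher and 6 lower, against 9.98% and 8.93% of all genes. For PGE2 against control kidney the count was again 0 of 27 each way, against 0.555% and 2.15%. Since some genes entered only through the array where they were brighter, these shares are a description.

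The median difference over all 36 genes was 0.00 in each of the 3 comparisons, as it was over all 19938 genes. The median size of the difference between serum and control kidney, sign left out, was 0.37 for the members and 0.07 for all genes. These sets differ in brightness, since 29 of 36 members and 11778 of 19938 genes entered that comparison, and the difference in spread was not tested. It was 0.31 against 0.07 for PGE2 against serum kidney, and 0.06 against 0.03 for PGE2 against control kidney. Members whose value was exactly equal on all 3 arrays numbered 7, or 19.4%, against 29.1% of all genes.

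**Figure D1:**
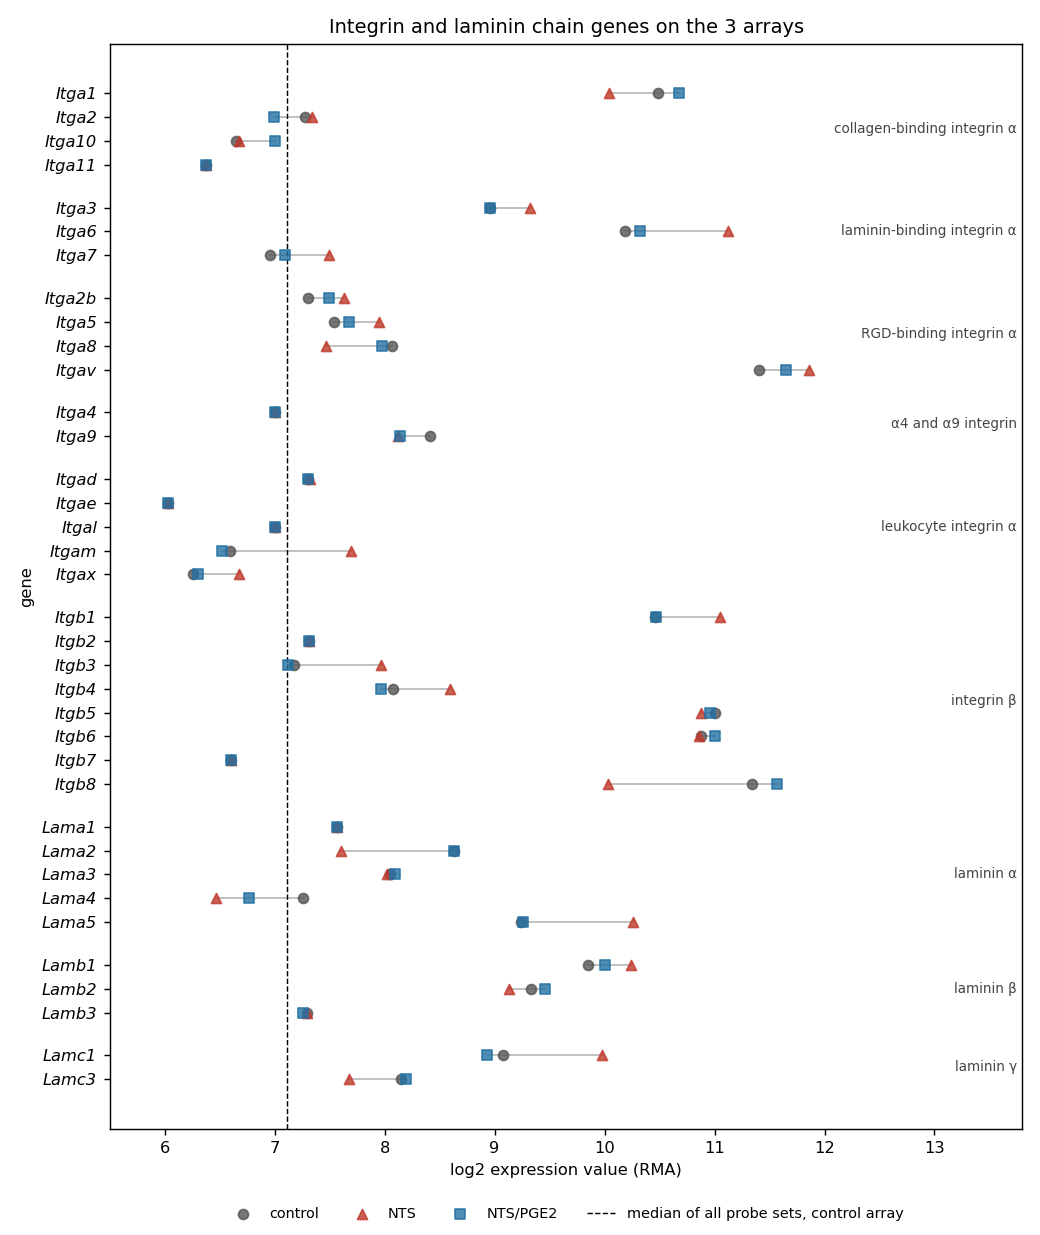
Log2 expression value (x axis) of each of the 36 genes (y axis, grouped by role) on the control array (grey circles), the NTS array (red triangles) and the NTS/PGE2 array (blue squares), 1 array each; the dashed line is the median of all probe sets on the control array. The NTS triangle lies away from the other symbols for Itgb8, Lama2, Lama5, Lamc1, Itgam and Itga6, while circle and square lie close together; positions of different genes are not comparable, since each has its own probes.

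The promoters of the genes past 2-fold between serum and control kidney are shown first, so that a reader can see what lies before the start of the genes with the largest differences. RefSeq promoters (GRCm38.p6) were listed for 23 of the 36 genes. Lamc1 had no entry. Each sequence is the 250 bases before the annotated start, 5′ to 3′ on the gene's strand, in lower case, with the letters of 6 short motifs in capitals. The genes are Itgb8 (chr12:119238277-119238526, minus strand), Lama2 (chr10:27616943-27617192, minus strand), Lama5 (chr2:180225860-180226109, minus strand) and Itgam (chr7:128062390-128062639, plus strand).
Itgb8: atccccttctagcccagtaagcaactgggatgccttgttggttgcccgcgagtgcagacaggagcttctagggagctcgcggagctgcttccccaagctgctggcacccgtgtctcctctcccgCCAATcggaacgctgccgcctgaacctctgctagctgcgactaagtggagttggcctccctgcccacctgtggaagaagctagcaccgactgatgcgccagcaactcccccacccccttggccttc
Lama2: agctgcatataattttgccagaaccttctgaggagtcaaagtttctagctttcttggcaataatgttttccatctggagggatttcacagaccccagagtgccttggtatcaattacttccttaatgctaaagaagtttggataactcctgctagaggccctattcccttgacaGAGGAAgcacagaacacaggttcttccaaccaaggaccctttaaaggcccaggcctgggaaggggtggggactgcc
Lama5: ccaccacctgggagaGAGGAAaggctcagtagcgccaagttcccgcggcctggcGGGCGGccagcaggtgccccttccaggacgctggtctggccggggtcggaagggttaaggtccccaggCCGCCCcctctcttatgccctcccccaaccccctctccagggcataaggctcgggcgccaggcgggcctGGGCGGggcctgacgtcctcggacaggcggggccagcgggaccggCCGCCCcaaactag
Itgam: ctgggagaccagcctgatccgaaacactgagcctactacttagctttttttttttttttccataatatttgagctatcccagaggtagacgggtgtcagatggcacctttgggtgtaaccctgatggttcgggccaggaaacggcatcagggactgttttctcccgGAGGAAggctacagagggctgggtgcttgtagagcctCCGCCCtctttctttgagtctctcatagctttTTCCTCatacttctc

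The motifs were searched on both strands, and no 2 matches in these windows overlapped. They were the TATA box, as the letters TATAAA, the CCAAT box, by its name, and the GC box bound by Sp1, as GGGCGG. The others were the site of AP-1, as TGANTCA, the cAMP response element, as TGACGTCA, and a core of PU.1 sites, as GAGGAA. The Lama5 window held 4 GC boxes, at 196, 128, 59 and 14 bases before the start, and 72.4% of its bases were G or C, against a median of 52.4% over 32851 promoter windows of the same length. A GC box occurred in 32.7% of those windows. The Itgam window held 2 matches to the PU.1 core, at 84 and 15 bases before the start, and 1 GC box. PU.1 is a factor of myeloid cells, and its core was in 13 of 26 promoter entries of the members and in 23.3% of all windows. Lama5 and Lama2 also held 1 each, that of Lama5 at 235 bases before the start. Itgb8 had 1 CCAAT box, 126 bases before the start, a motif found in 33.8% of windows. None of the 4 windows held the TATA box (12.4% of all windows), the AP-1 letters (6.75%) or the full cAMP response element (1.55%). A match is a string of letters, and nothing was measured here about binding.

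Among laminin α chains, Lama5 stood higher and Lama2 and Lama4 lower in serum kidney. Lama5 is the α chain of the adult glomerular basement membrane and of most tubule basement membranes. It read 9.24 in control kidney, 10.26 in serum kidney and 9.26 in PGE2 kidney. Serum kidney alone was high, 2.02-fold above control, and PGE2 kidney lay 0.02 above control on the log2 scale. Lama2, an α chain of the mesangial matrix and of muscle, read 8.63, 7.60 and 8.63 in the same order. It mirrored Lama5, with serum kidney alone low, 2.04-fold under control.

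Lama4, an α chain of vessel walls that also surrounds fat cells, read 7.26 in control kidney, 6.47 in serum kidney and 6.77 in PGE2 kidney. It was the member furthest below control in PGE2 kidney, at -0.49, and both treated arrays were below the array median. Endothelial markers and fat markers moved with it. All 9 endothelial genes were lower in serum kidney, with a median of -1.67, and their summed level, on the linear scale, was 13467 in control kidney, 4446 in serum kidney and 11706 in PGE2 kidney. The fat list had 7 of 8 genes lower in serum kidney and 8 of 8 lower in PGE2 kidney than in control kidney, with summed levels of 14906, 1783 and 1683. The part of either in the Lama4 values was not tested. Lama1, an embryonic chain that persists in tubule basement membranes, was listed at 7.57 on all 3 arrays, and Lama3, a chain of surface epithelia, read between 8.02 and 8.09.

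The β and γ chains were less spread, apart from Lamc1. Lamc1, the γ chain shared by nearly all kidney laminins, read 9.08 in control kidney, 9.98 in serum kidney and 8.93 in PGE2 kidney. That is 1.87-fold above control in serum kidney, short of the size rule, and 2.07-fold below serum kidney in PGE2 kidney. Lamb1, the β chain of tubule and developing basement membranes, read 9.85, 10.24 and 10.00, with differences of 0.38 and -0.24. Lamb2, which replaces it in the mature glomerular basement membrane, had the opposite signs, reading 9.33, 9.13 and 9.46, but the serum kidney difference of -0.20 was about the SD of a probe set. Lamc3, the minor γ chain, read 8.15, 7.68 and 8.19, and Lamb3, of the surface epithelium laminin, between 7.26 and 7.29.

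Set out as 5 trimers, the chains shared 1 direction in laminin-511 and not in the other 4. For laminin-511 the 3 chains Lama5, Lamb1 and Lamc1 were all higher in serum kidney, by 1.02, 0.38 and 0.90, and all lower in PGE2 kidney than in serum kidney, by -0.99, -0.24 and -1.05. Laminin-521, the form of the mature glomerular basement membrane, differs from it by Lamb2, at -0.20 and 0.33. In laminin-211 and laminin-411 the α chain gene was lower in serum kidney, at -1.03 and -0.80, while the shared Lamb1 and Lamc1 were higher. These trimers share their β and γ genes, so they are not independent. Podocytes make laminin chains of the glomerular filter, and their markers gave a median of 0.03 over 6 measured genes in serum kidney against control.

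All 3 laminin-binding integrin α chains were higher in serum kidney. Itga6, whose chain pairs with that of Itgb1 or Itgb4 in tubule cells, read 10.19 in control kidney, 11.12 in serum kidney and 10.32 in PGE2 kidney. At 1.90-fold it came closest to the size rule without meeting it, among genes above control in serum kidney. Itga3, the laminin receptor chain of the podocyte and tubule, read 8.96, 9.32 and 8.96, and Itga7, mainly of muscle, 6.96, 7.49 and 7.09. Their β partners stood on the same side. Itgb1, the β chain of most matrix receptors, read 10.46, 11.05 and 10.47, and Itgb4, which anchors epithelia through hemidesmosomes, 8.08, 8.59 and 7.97. In each of these 5 genes serum kidney was the highest, by differences of 0.36 to 0.92, and PGE2 kidney lay within 0.14 of control.

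The collagen-binding chains showed another pattern. Itga1, a receptor chain for type IV collagen in mesangial and endothelial cells, read 10.49 in control kidney, 10.04 in serum kidney and 10.68 in PGE2 kidney, so serum kidney was lowest and the difference between the treated arrays was 0.64. Itga2, its neighbour on the chromosome, read 7.28, 7.34 and 6.99. Itga10 and Itga11, receptor chains of cartilage and fibroblasts, were below the median on every array, with Itga11 listed at 6.38 on all 3 and Itga10 between 6.65 and 7.00.

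Of the 4 α chains that recognise the arginine-glycine-aspartate (RGD) motif, Itgav, Itga5 and Itga2b were higher in serum kidney and Itga8 lower. Itgav, which serves several β chains, read 11.40 in control kidney, 11.86 in serum kidney and 11.65 in PGE2 kidney. Itga5, the fibronectin receptor chain, read 7.54, 7.95 and 7.68. Itga8, a chain of mesangial and smooth muscle cells that binds nephronectin, read 8.07, 7.47 and 7.98, and only serum kidney stood apart. Markers of mesangium and pericytes were lower in serum kidney in 4 of 6 measured genes, with Pdgfrb, a receptor of these cells, at -1.22. Their summed linear level was 3900 in control kidney, 2505 in serum kidney and 3341 in PGE2 kidney. Their part in the Itga8 values was not tested.

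The β partners of Itgav went separate ways. Itgb8, whose receptor with αv frees TGF-β from its latent form, read 11.34 in control kidney, 10.03 in serum kidney and 11.57 in PGE2 kidney. It was the lowest member in serum kidney against control, 2.47-fold under it, and the highest in PGE2 kidney against serum kidney, 2.90-fold over it. Serum kidney alone was low. Itgb6, the other β chain known for freeing TGF-β, in epithelia, read 10.88, 10.86 and 11.00, and Itgb5, a vitronectin receptor chain, 11.00, 10.88 and 10.96. Both stayed within 0.13 between any 2 arrays. Itgb3, of platelets, vessels and osteoclasts, went the other way from Itgb8, reading 7.18, 7.97 and 7.12, so serum kidney was highest by 0.79.

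Tubule and vessel markers were lower in serum kidney together with Itgb8. All 8 proximal tubule genes were lower, with a median of -1.45 and summed linear levels of 47458, 17431 and 49994 in control, serum and PGE2 kidney. All 8 genes of the loop, distal tubule and collecting duct were lower too, with a median of -0.92. Injured tubule genes went the other way in 8 of 8, with summed levels of 4765, 26306 and 2680. One of them, Vcam1 at 0.17, differed by less than the SD of a probe set. Such sums weigh bright genes most, here Lcn2 at 11.86, 13.85 and 10.56. For PGE2 against control kidney, 2 of the 8 injured tubule genes were higher and 5 lower, with Havcr1 at 0.73 and Lcn2 at -1.30. The part of these cell types in the integrin and laminin values was not tested.

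Among integrins of blood cells, Itgam stood out. Itgam, the CD11b chain of monocytes, macrophages and neutrophils, read 6.59 in control kidney, 7.69 in serum kidney and 6.52 in PGE2 kidney. It was 2.15-fold higher in serum kidney than in control kidney, and 2.26-fold lower in PGE2 kidney than in serum kidney. It passed the filter only through serum kidney and lay below the median on both others, so its presence among the genes that entered rests on the difference itself. Its only partner chain, Itgb2 (CD18), was listed at 7.31 on all 3 arrays. The neighbouring genes Itgax (CD11c) and Itgad, which also pair with Itgb2, read 6.26, 6.68 and 6.30 for Itgax and between 7.30 and 7.32 for Itgad.

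The lymphocyte chains were listed without a difference. Itgal (CD11a), Itgae (CD103), Itga4 and Itgb7 were listed at 7.00, 6.03, 7.00 and 6.60, each equal on all 3 arrays and each below the median. Since the summary method can return exactly equal values, this does not show equal expression. Equal values were not limited to dim genes, as Itgb2 and Lama1 lay above the median and were equal too. Itga9, a chain of smooth muscle and endothelium related to Itga4, read 8.41, 8.12 and 8.14, lower than control on both treated arrays. Smooth muscle markers had 5 of 6 genes lower in serum kidney and 5 of 6 in PGE2 kidney, with summed linear levels of 5378, 3356 and 3241 in control, serum and PGE2 kidney. Their part in the Itga9 values was not tested.

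Markers of leukocytes did not move as 1 group beside Itgam. In serum kidney 4 of 16 measured markers were higher than in control and 9 lower, with a median of -0.08, and their summed linear level was 3071 in control kidney, 3937 in serum kidney and 2581 in PGE2 kidney. Only 6 of the 16 entered the comparison of serum with control kidney, so the count and the median largely describe markers dim on both arrays. The monocyte and macrophage genes Cd14 and Cd68 were higher by 2.15 and 2.23, while the pan-leukocyte gene Ptprc was at -0.12, the macrophage gene Adgre1 at -0.87 and the macrophage receptor Csf1r at -1.09. The neutrophil genes S100a8 and S100a9 differed by 0.13 and 0.00 and were dim. Itga2b, the platelet chain that pairs with Itgb3, read 7.30, 7.63 and 7.49, beside platelet markers with a median of 0.12 over 5 measured genes in serum kidney. Of those 5 platelet markers only 2 entered that comparison. What part leukocytes or platelets had in these values was not tested.

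**Figure D2:**
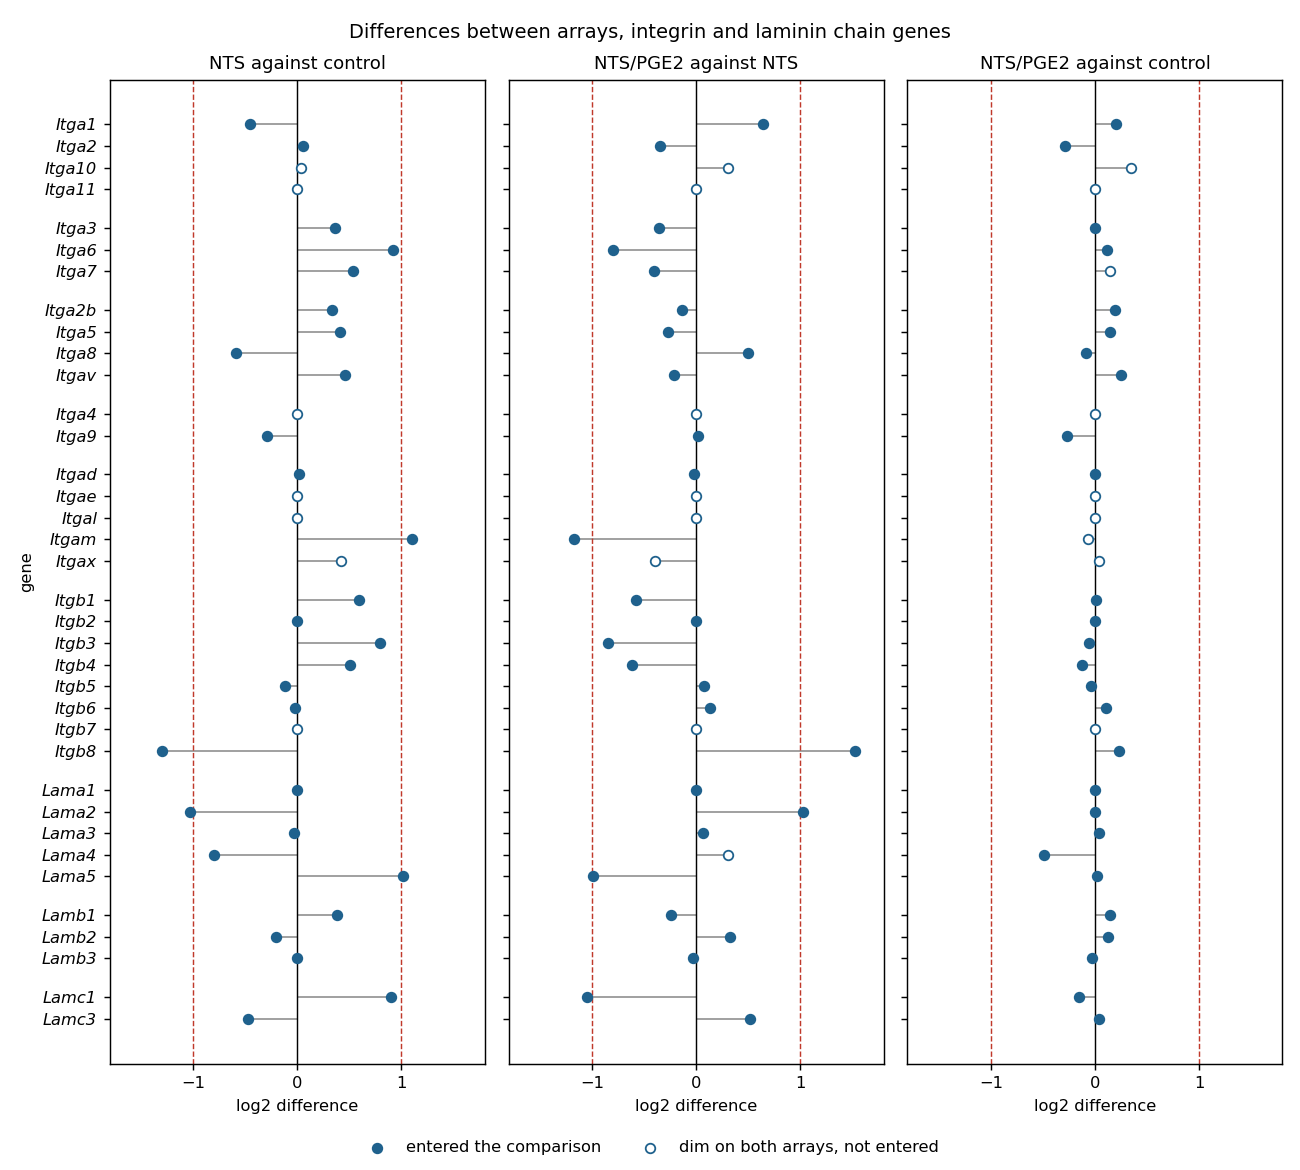
Log2 difference (x axis) of each of the 36 genes (y axis) in each comparison, 1 panel each; filled points entered the comparison, open points were dim on both arrays, and dashed red lines mark 2-fold. Itgb8 reaches -1.30 in the left panel and 1.53 in the middle one, whereas in the right panel every point lies between -0.49 (Lama4) and 0.35 (Itga10).

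Integrins work as pairs, so 24 known heterodimers were set out by the differences of their α and β genes. For serum against control kidney both genes were higher in 10 pairs, both lower in 0, of opposite sign in 6, and in 8 pairs at least 1 gene had equal values. For PGE2 against serum kidney both were lower in 9, both higher in 0 and of opposite sign in 7. Signs were counted at any size and without the filter. In serum against control kidney Itga10 (0.04), Itga2 (0.06), Itgb5 (-0.12) and Itgb6 (-0.02) differed by less than the SD of a probe set. Of all 19938 genes, 6540 were higher and 6029 lower in that comparison. Itgb1 stands in 12 of these pairs and Itgav in 5, so the pairs are not independent. The pair of Itgav and Itgb8 was the most divided: its α gene was at 0.46 and its β gene at -1.30 in serum kidney. Itga8 and Itga1 were also opposed to their partner Itgb1, at -0.59 and -0.45 against 0.59. The pairs of Itga6 with Itgb1 and with Itgb4 lay on 1 side.

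**Figure D3:**
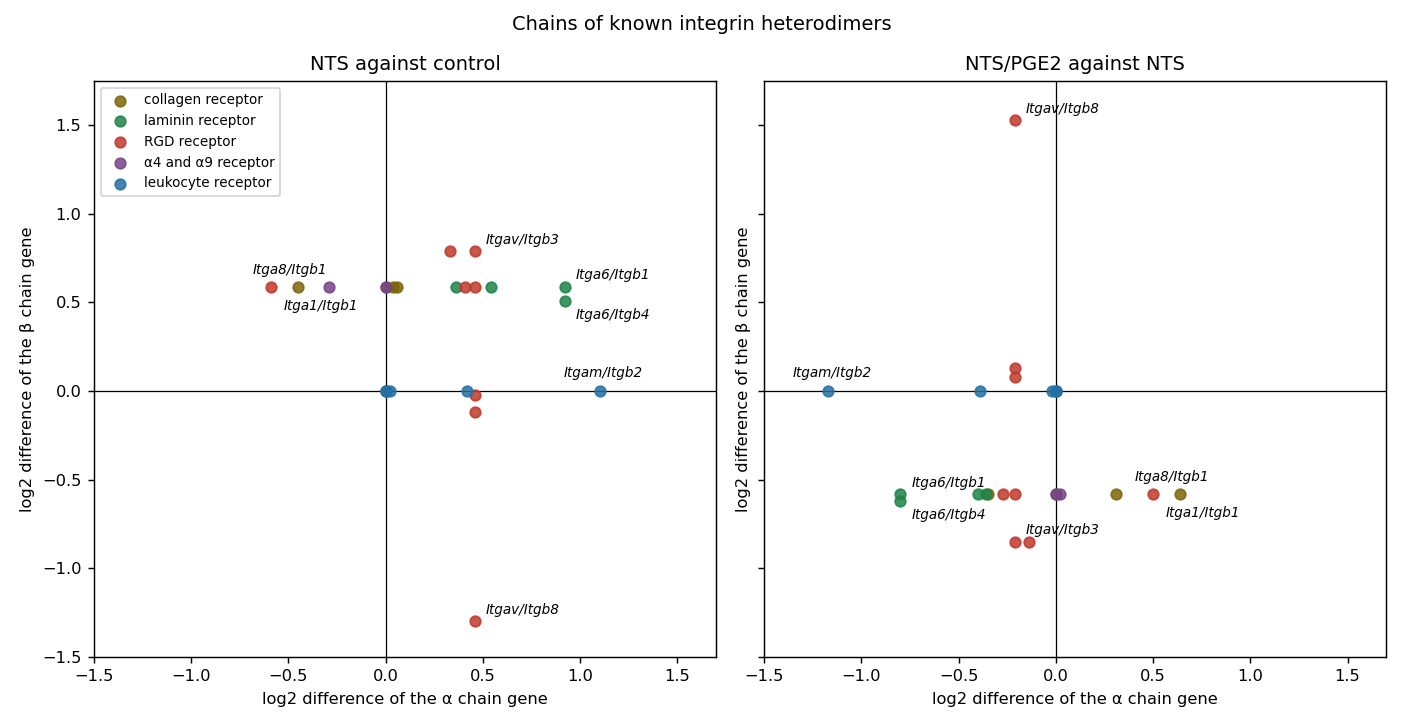
Log2 difference of the α chain gene (x axis) against that of its β partner (y axis) for 24 known integrin heterodimers, coloured by receptor class, for NTS against control (left) and NTS/PGE2 against NTS (right). On the left 10 pairs lie in the upper right and Itgav/Itgb8 lies alone far down at -1.30; points in 1 row share a β chain.

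Other basement membrane genes were described through a list of 12. In serum kidney 8 were higher than in control and 2 lower, with a median of 0.28, against 0.00 over all genes. Of the 11 that entered, 3 were at least 2-fold higher and 0 lower, where 2.70% and 5.42% of all genes were. The type IV collagen genes Col4a1 and Col4a2, of the network present in all basement membranes, were higher by 1.19 and 1.13. Col18a1, a collagen that carries heparan sulfate, was higher by 1.16, and Agrn, a heparan sulfate proteoglycan that binds laminin, by 0.68. For PGE2 against serum kidney the same 4 genes differed by -1.12, -1.01, -1.04 and -0.58, and against control by 0.07, 0.11, 0.11 and 0.10. These 4 genes, like Lama5 and Lamc1, were highest in serum kidney. Of the rest of the list, Col15a1 and Nid2 were higher than control in serum kidney, by 0.60 and 0.49. Col4a3 (0.06), Col4a4 (0.07), Hspg2 (-0.03) and Nid1 (-0.18) differed there by less than the SD of a probe set. Col4a5 and Col4a6 were at 0.00.

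Laminin receptors that are not integrins, with the integrin-associated gene Cd151, made up a list of 6 genes. In serum kidney 3 of them differed from control by less than the SD of a probe set: Dag1, the dystroglycan gene, by 0.01, Mcam, a cell surface glycoprotein, by 0.08 and Sdc4, a syndecan, by 0.15. The other 3 were higher in serum kidney. Of the 6, 0 reached 2-fold against control there, where 2.70% of all genes were higher and 5.42% lower. Bcam, the Lutheran glycoprotein that binds the laminin α5 chain, read 10.50 in control kidney, 11.36 in serum kidney and 10.32 in PGE2 kidney. Like Lama5, it was highest in serum kidney, by 0.86. Sdc1, another syndecan, was higher by 0.71, and the tetraspanin gene Cd151, which associates with laminin-binding integrins, by 0.24. For PGE2 against serum kidney Bcam, at -1.04, was the only 1 of the 6 past 2-fold, where 3.28% of all genes were lower. Of the hemidesmosome partners of Itgb4, Plec, the plectin gene, differed by 1.17 in serum kidney and by -1.16 in PGE2 kidney against serum kidney, Dst, a relative of plectin, was at -0.32 and Col17a1 was dim on all arrays.

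Integrin ligands other than laminins went both ways. Of 19 measured, 10 were higher and 7 lower in serum kidney, and the median was 0.06. Of the 16 that entered, 5 were at least 2-fold higher and 2 lower, against 2.70% and 5.42% of all genes. The fibrinogen chain genes Fgb, Fgg and Fga, ligands of the Itgam and Itgb3 receptors, were higher by 4.43, 4.10 and 2.95. Fbln5, an elastic fibre protein, was lower at -1.91. Other ligands were chosen after their values were seen. Fn1 (fibronectin), a ligand of the Itga5 receptor, was at 1.53, Npnt (nephronectin), of the Itga8 receptor, at -0.57, Tnc (tenascin-C), of the Itga9 receptor, at 0.64, and Postn (periostin), of Itgav receptors, at -1.35. Beside them Itga5 and Itga8 were at 0.41 and -0.59, and Itga9 and Itgav at -0.29 and 0.46, so ligand and receptor genes lay on 1 side in some cases and on opposite sides in others. For PGE2 against control kidney, Fn1, Npnt, Tnc and Postn were at 0.15, 0.52, -0.72 and -1.71. Postn was thus low on both treated arrays, and not in serum kidney alone.

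On the cytoplasmic side of the adhesion, of 24 measured activators and adaptors 12 were higher and 4 lower in serum kidney, and the median was 0.03. Of the 22 that entered, 0 passed 2-fold in either direction, where 2.70% and 5.42% of all genes did. At 1.5-fold 4 were higher and 1 lower, against 7.62% and 11.9%. The largest differences were in Actn1, which ties integrins to actin, at 0.95, Tln2, a talin, which activates integrins, at -0.84, Pxn (paxillin) at 0.76 and Bcar1, a docking protein of focal adhesions, at 0.70. Chosen after their values were seen, the kindlins Fermt1 and Fermt2 and the kinase gene Ilk were listed as equal on all 3 arrays, at 9.46, 10.67 and 10.51. The summary method can return exactly equal values, so this does not show equal expression. In PGE2 kidney Actn1 was lower than in serum kidney at -1.13, the only adaptor past 2-fold there.

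**Figure D4:**
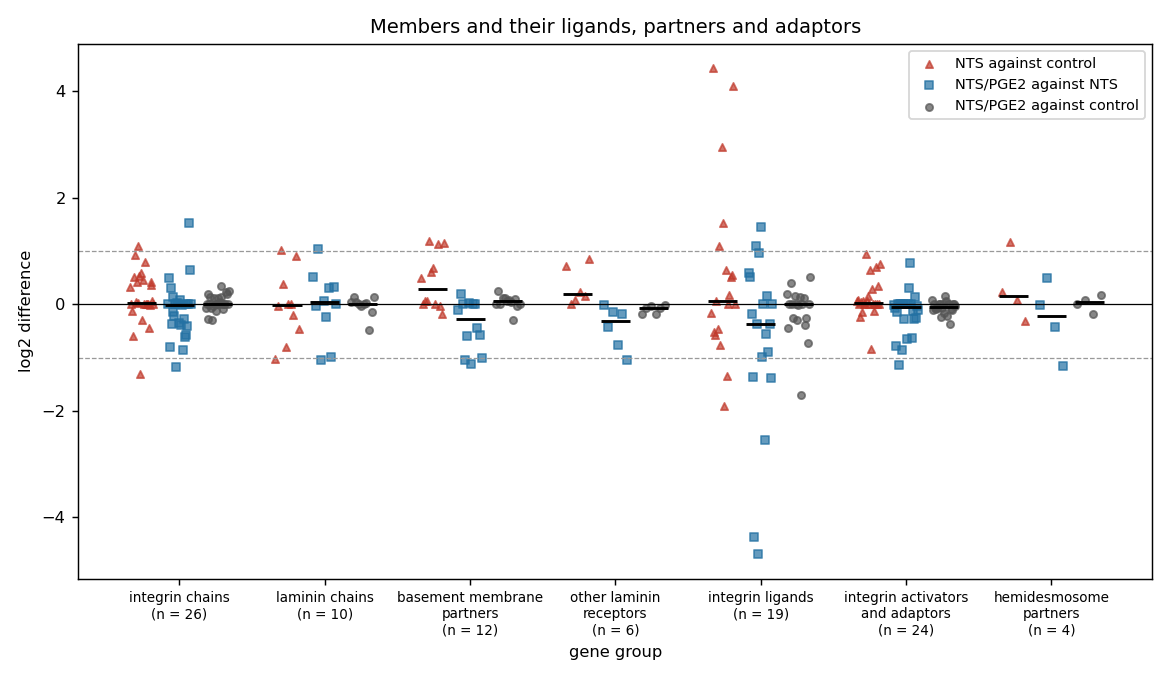
Log2 differences (y axis) of single genes in the integrin chains (26), laminin chains (10) and 5 companion lists (x axis), with red triangles for NTS against control, blue squares for NTS/PGE2 against NTS and grey circles for NTS/PGE2 against control; black bars are medians, dashed lines mark 2-fold and sideways scatter has no meaning. The basement membrane partners have a median of 0.28 on the NTS array against control, the integrin ligands reach 4.43, and the grey points of the integrin and laminin chains stay between -0.49 and 0.35.

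The comparison of PGE2 kidney with control kidney asked how far the treated kidney still differed from the untreated one. The members ranged from -0.49 for Lama4 to 0.35 for Itga10, which was dim on both arrays. Beyond Lama4, the lowest values were Itga2 at -0.29 and Itga9 at -0.27, and the highest among those that entered were Itgav at 0.25, Itgb8 at 0.23 and Itga1 at 0.20. Lama5, Lama2, Itgb1 and Itga3 lay within 0.02 of control. All 3 comparisons reuse the same 3 arrays, so a gene high in serum kidney alone appears in 2 of them with opposite signs.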

How the data were processed

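Biotin-labelled kidney RNA (250 ng for each array) was hybridised to 3 arrays, 1 for each group, per the labels' protocols. The authors deposited log2 values from Affymetrix Expression Console and RMA, per the submitters' processing notes; its version is not given in the sources used here, and neither is a build. RMA subtracts background, equalises the arrays' distributions and fits each probe set by median polish, which can return exactly equal values over 3 arrays and understate small differences. Of 35556 probe sets, 21789 had 1 platform symbol, 1621 several and 12146 none listed; the last 2 kinds were not used. All 37 member probe sets matched a gene identifier of the GRCm38.p6 table, with 0 symbols altered.

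Differences of log2 values were taken with pandas 2.3.3 (Python 3.11.15), by a rule of size and no test. The calculation was tested on simulated data. Equal means within 1e-06. Sums of marker lists add the values after undoing the log2. The members, lists, heterodimers, motifs and rules were chosen with earlier results of these data known. Genes named were members past 2-fold, a fixed set of kidney chains and the highest and lowest of each role. Up to 4 genes of each companion list were named by size of difference. The remaining members, the remaining basement membrane partners, Fn1, Npnt, Tnc, Postn, Fermt1, Fermt2, Ilk, Dag1 and Mcam were added after their values were seen. Precision is limited by the number of arrays. Alternatives were another size rule, 2 other filters, the brightest probe set, median centring, and medians without dim genes or without blood cell integrins.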

Additional observations from a re-analysis of the deposited data

How the results depend on the processing

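At 1.5-fold in place of 2-fold, members higher in serum than in control kidney numbered 6 instead of 2, members lower 4 instead of 2, and members lower in PGE2 than in serum kidney 6 instead of 2, since a smaller size lets more genes pass. With each array centred on its median, members at least 2-fold higher in PGE2 than in serum kidney numbered 1 instead of 2, because Lama2, at 1.03, lay at the size rule. Members at least 2-fold lower in that comparison numbered 3 instead of 2, as Lama5 went from -0.99 to -1.02. This count was among 38 counts and medians over the members labelled as unmoved. These stayed within 1.5 times of the reported count or moved by less than the SD of a probe set. Those 38 include the counts for PGE2 against control kidney, which were 0 at every setting. Centring moved none of 300 differences of 100 members and companion genes by the SD of a probe set. It could not have done so, since the shifts taken off the control, serum and PGE2 arrays were only -0.011, -0.007 and 0.018. The brightest probe set could change only 3 of those genes, Itgad alone among the members, and moved Fga, to 3.26 in serum against control kidney and -2.90 in PGE2 against serum kidney. Leaving out listed fat, urothelium and smooth muscle markers, a choice made after seeing the data, left 318 genes higher and 625 lower in serum kidney, against 318 and 638. Only the listed genes could drop out and no other value was recomputed. These counts therefore cannot show what part fat or other tissue had in the remaining values. Dim genes could not be set against a measured background. No paired analysis was possible because each group has 1 array.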

Other observations

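Probe sets and genes close to the members but outside the naming rule gave these values. The 3 probe sets that the platform assigns to both Rpl35, a ribosomal protein gene, and Itgam read between 12.15 and 12.27 in control kidney and between 12.40 and 12.57 in serum kidney. Their differences of 0.25 to 0.30 are smaller than the 1.10 of the probe set assigned to Itgam alone, and they entered no comparison. Itgb1bp1, an inhibitor of integrin activation that binds the β1 tail, read 8.57 in control kidney, 8.42 in serum kidney and 8.73 in PGE2 kidney. Itgb2l, a relative of Itgb2, was at 6.86, 6.86 and 7.06, and Itgbl1 and Itgb3bp were listed at 6.02 and 6.37 on all 3 arrays.

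Markers of urothelium, an epithelium with hemidesmosomes, had medians against control kidney of -1.13 in serum kidney and -1.23 in PGE2 kidney over 7 genes. Itgb4, the hemidesmosome integrin chain, was at 0.51 and -0.12. Skeletal muscle markers had a median of 0.04 over 6 genes in serum kidney against control kidney, beside 0.54 for Itga7 and -1.03 for Lama2, chains known from muscle. Of those 6 muscle markers only 3 entered that comparison.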
